A study of Homo sapiens with 4 samples.

Results

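The genes described here encode heterogeneous nuclear ribonucleoproteins (hnRNPs), serine/arginine-rich (SR) splicing factors and the TRA2 proteins, 36 genes chosen by symbol. They were found on the arrays through the RefSeq accession of each probe, with control spots dropped, and all 36 had at least 1 probe among the 22439 genes that could be named. They comprise 22 hnRNP genes, *SYNCRIP* and *PTBP1* included, and 14 SR and TRA2 genes, and were measured by 62 probes. A549, an established line of human lung adenocarcinoma, was profiled on 1-color Agilent arrays, 4 in all. On 1 array the cells had received *miR-486-5p* and on 1 array *miR-486-3p*, the strands that arise from the 2 arms of the miR-486 precursor. The other 2 arrays were mock arrays, from cells given the lipid transfection reagent RNAiMAX with no miRNA. All were kept in their normal culture medium, and the time between transfection and RNA extraction for the arrays is not given in the sources used here. Because no control RNA was transfected, an effect of the sequence of a strand and an effect of any transfected small RNA cannot be told apart.

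Both protein families bind pre-mRNA while it is being transcribed and spliced. SR proteins mostly bind enhancer sequences in exons and recruit the spliceosome to nearby splice sites, whereas many hnRNPs bind silencer sequences and oppose them, and the balance between the families sets how often an alternative exon is used. Several of these genes limit their own protein through alternative exons that route the transcript to nonsense-mediated decay, and some, such as *SRSF1*, *HNRNPA1*, *HNRNPA2B1* and *PTBP1*, are abundant in proliferating tumor cells, lung adenocarcinoma included.

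The scanner software called 30785 and 31012 of 58201 probes well above background in mock cells, 30690 with *miR-486-5p* and 31516 with *miR-486-3p*. All 62 probes of the splicing factors were well above background on every array. In what follows, a level is the log2 of the background-corrected signal minus the log2 of the 75th percentile of that array. A level compares the same probe between arrays, and levels of different probes are not set against each other. Between the mock arrays, the 62 probes differed by −0.17 to 0.27 on this scale, with an SD of 0.0792, and 0 of them by more than 0.5. Precision is limited by the number of arrays, 1 for each strand, and in bulk RNA fewer cells that make a transcript and less transcript per cell cannot be told apart.

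Of 9 genes fixed as markers of these epithelial cells, 6 had a probe well above background on all 4 arrays. Before scaling, the signal of 1 probe of the keratin gene *KRT18* was 2950.3 and 3154 in mock cells, 1908 with *miR-486-5p* and 1884 with *miR-486-3p*. *KRT7* gave 1848, 1870.2, 1889 and 1303 in the same order. The 3 probes of *KRT8* disagreed: 1 went from 495 and 534 to 1445 and 635, and another from 1226 and 1242 to 700.2 and 383. The last also fell, from 49.7 and 48.2 to 21.3 and 9.14. *KRT19* gave 22.7, 22, 10.3 and 24.8. limma called 2 of the 8 marker genes tested lower and 3 higher after *miR-486-5p* (all genes: 6.66% and 3.58%), and 5 and 4 after *miR-486-3p* (all genes: 31.6% and 31.9%), 1 and 2 of them in both directions. The E-cadherin gene *CDH1* was not well above background on any array, *EPCAM* was so on 2 and *AKR1B10* on 1. Of 10 genes of leukocytes, endothelium and fibroblasts, 7 also had a probe well above background on all 4 arrays, at signals such as 18.3 and 19.9 for the monocyte gene *CD14* and 43.7 and 38.6 for the endothelial gene *CDH5* on the mock arrays. *PECAM1* and *COL3A1* were not well above background on any array. *CD14* had signals of 30.3 with *miR-486-5p* and 72.8 with *miR-486-3p*. limma called 1 of the 8 such genes tested lower after *miR-486-5p*, and 3 lower and 4 higher after *miR-486-3p*, beside the same shares of all genes; their part in the values given here was not tested.

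After *miR-486-5p*, most hnRNP genes lay slightly below the mock arrays. The median log2 difference of the 22 hnRNP genes was −0.46 and that of the 14 SR and TRA2 genes −0.18, beside 0.03 over all 16024 genes measured for this strand. A difference is the level after transfection minus the mean of both mock arrays, averaged over the probes of a gene. A percentage of the mock signal, given below for single probes, is computed from the difference of levels and is thus a value after scaling. It depends on the 75th percentile of each array, which was 114.1 and 114.3 on the mock arrays, 104.6 with *miR-486-5p* and 93.1 with *miR-486-3p*. Of the 36 genes, 12 lay below −0.5, where 15.9% of all genes did, and 2 lay above 0.5, where 13.8% of all genes did. The 12 comprised 9 hnRNP genes and 3 SR or TRA2 genes. At the level of probes, 46 of 62 were below both mock arrays, 13 above both and 3 between them, beside 42.2%, 47.5% and 10.2% of the 19854 named probes well above background on every array. Among all genes past 0.5 in either direction, 46.5% lay above, and 36.3% when arrays were scaled to their median. With limma at an adjusted p of 0.05, the threshold meant below, 2 genes fell, *HNRNPA3* and *HNRNPF* (6.66% of all genes tested were called lower), and 1 gene, *SRSF6*, rose through 1 of its 2 probes (3.58% of all genes were called higher). These limma counts depend on the values used: on the authors' log2 values limma called 0 of the 36 genes, and 0 of all genes, in either direction (24 lower and 3 of the 36 higher at an unadjusted p under 0.05, beside 26.1% and 22.7% of all genes). With normexp background correction it called 27 lower and 4 higher, beside 23.1% and 22.2% of all genes. Over all genes, 35% of calls were higher, and 49% with normexp. On the values used throughout, 18 hnRNP and 6 SR or TRA2 genes were lower by limma at an unadjusted p under 0.05, and 1 and 3 were higher; of all genes, 25.1% were lower and 23.3% higher in this way.

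limma takes its spread from the 2 mock arrays and assumes that each transfected array varies as they do, with 1 residual degree of freedom. No source says whether the mock arrays came from separate cultures, so the p-values measure the spread between these arrays only. Both strands were compared with the same mock arrays, and the differences of the strands therefore share them.

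After *miR-486-3p*, most of the hnRNP genes fell. Their median log2 difference was −0.94, and that of the SR and TRA2 genes −0.35, beside 0.06 over all 16446 genes measured for this strand. Of the 36 genes, 24 lay below −0.5 (27.2% of all genes did) and 4 above 0.5 (30.4% of all genes did). Among the hnRNP genes, 17 of 22 lay below −0.5 and 1, *HNRNPH2*, above 0.5. The SR and TRA2 genes split more evenly, with 7 of 14 below −0.5 and 3, *SRSF5*, *SRSF8* and *SRSF11*, above 0.5. limma called 25 genes lower (31.6% of all genes) and 6 higher (31.9% of all genes); 2 of these, *HNRNPA3* and *SRSF6*, had probes called in both directions. Of the 62 probes, 50 were below both mock arrays, 11 above both and 1 between them, beside 47%, 47.6% and 5.43% of all such probes. The median of the hnRNP genes was below 0 under each scaling tried, between −0.72 on the authors' log2 values and −1.31 with median scaling. Median scaling moves every gene by the same −0.37. Relative to the median of all genes, the hnRNP median was −0.996, and −0.73 with quantile normalization and −0.99 with normexp. Higher genes made up 52.8% of all genes past 0.5 and 50.2% of all calls, and 29.9% and 31.1% with median scaling. The median of the SR and TRA2 genes was −0.0063 with normexp background correction and −0.73 with median scaling.

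Set directly against each other, the *miR-486-3p* array was below the *miR-486-5p* array by more than 0.5 in 16 of the 36 genes (26.4% of all genes) and above it by more than 0.5 in 6 (28.6% of all genes). The median difference was −0.46 for the hnRNP genes and −0.37 for the SR and TRA2 genes, beside 0.03 over all 16561 genes. limma called 20 of the 36 lower after *miR-486-3p* than after *miR-486-5p* (27.3% of all genes) and 7 higher (26.7% of all genes). The higher genes were *HNRNPA3*, *HNRNPF*, *HNRNPH2*, *SRSF4*, *SRSF5*, *SRSF8* and *SRSF11*, of which *HNRNPA3* and *SRSF11* were called through only 1 of their probes each. Median scaling moved the median of all genes by −0.30 here, and the higher share of all calls from 49.4% to 33.1%; of all genes past 0.5, 52% lay above, and 32.7% with that scaling. This comparison sets 1 array against 1 array, with the spread again taken from the mock arrays.

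**Figure D1:**
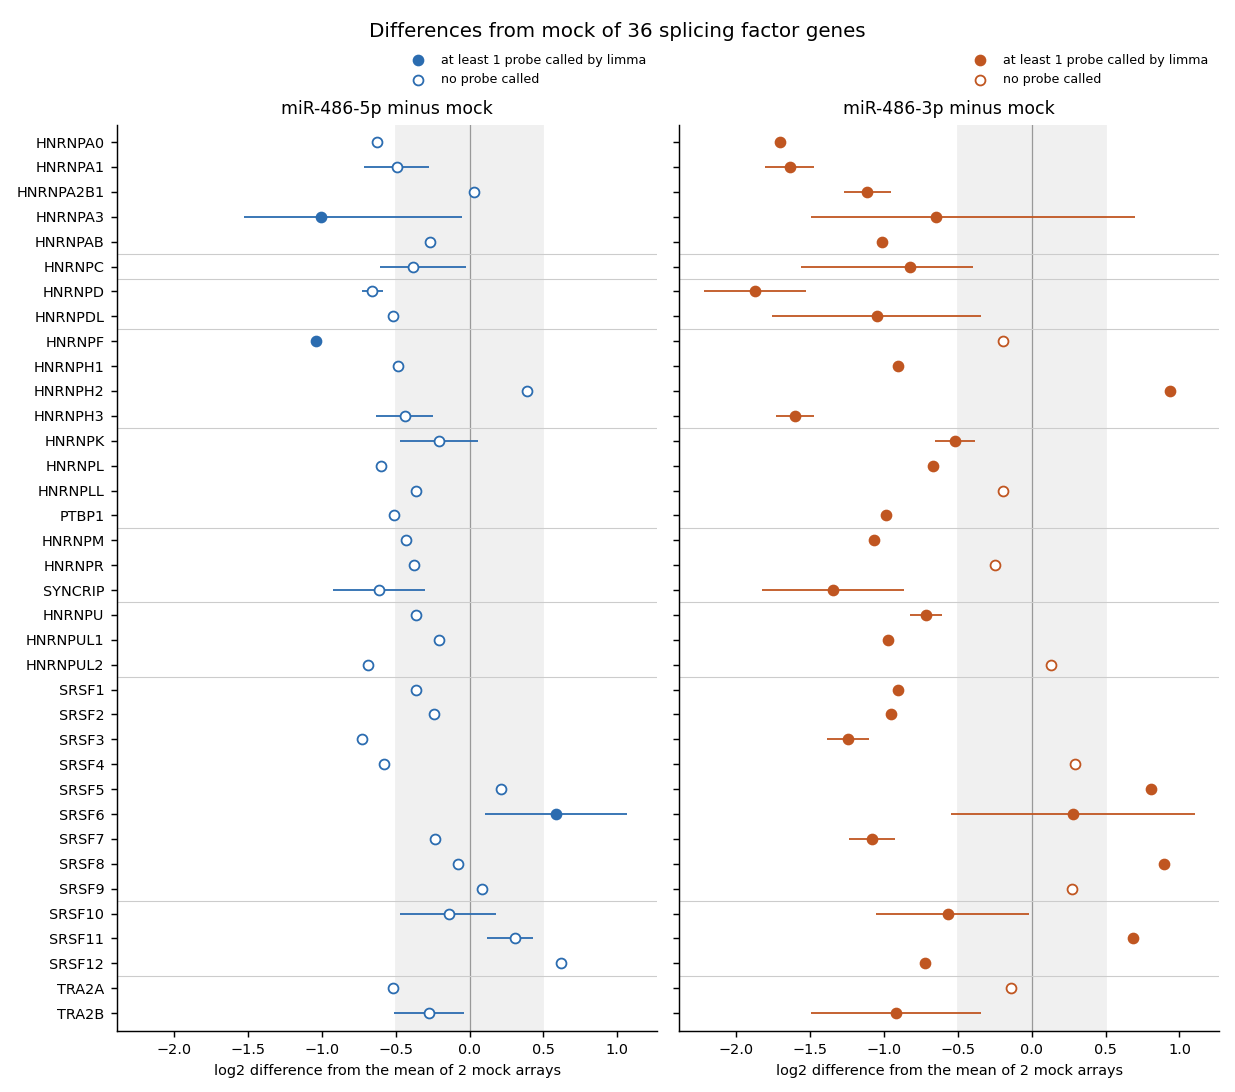
Log2 difference from mock for each of the 36 genes after *miR-486-5p* (left) and *miR-486-3p* (right), by role, with points at the mean over probes, lines from the lowest to the highest probe, fills for limma calls and a gray band from −0.5 to 0.5. After *miR-486-3p*, 24 points lie left of the band and 4 right of it, beside 27.2% and 30.4% of all genes. The differences of *SRSF4*, *SRSF6*, *SRSF9* and *HNRNPUL2* change sign with median scaling and that of *SRSF12* with normexp correction.

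Promoter sequences are given for 4 genes that moved after *miR-486-3p*, to show what lies before the starts of genes that fell and of genes that rose. RefSeq promoters (GRCh38.p14) were found for 33 of the 36 genes, with 48 starts. The shown genes are the 2 lowest and the 2 highest after *miR-486-3p* whose probes agree and that have 1 start in that table, chosen after their values were seen. Each sequence holds the 250 bases before the start, with capitals on matches, on either strand, to the letters CCAAT, to the GC box GGGCGG, to the E-box CACGTG, to the ETS-type motif CCGGAAG or to the TATA box letters TATAAA. *HNRNPD* lies at chr4:82373992-82374241 on the minus strand, *HNRNPA0* at chr5:137754364-137754613 on the minus strand, *SRSF5* at chr14:69766892-69767141 on the plus strand and *HNRNPH2* at chrX:101407972-101408221 on the plus strand.
HNRNPD: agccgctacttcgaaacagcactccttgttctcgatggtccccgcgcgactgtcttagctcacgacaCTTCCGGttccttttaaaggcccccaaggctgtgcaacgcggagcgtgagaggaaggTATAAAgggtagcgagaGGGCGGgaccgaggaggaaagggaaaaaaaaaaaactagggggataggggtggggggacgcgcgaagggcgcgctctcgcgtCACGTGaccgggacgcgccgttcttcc
HNRNPA0: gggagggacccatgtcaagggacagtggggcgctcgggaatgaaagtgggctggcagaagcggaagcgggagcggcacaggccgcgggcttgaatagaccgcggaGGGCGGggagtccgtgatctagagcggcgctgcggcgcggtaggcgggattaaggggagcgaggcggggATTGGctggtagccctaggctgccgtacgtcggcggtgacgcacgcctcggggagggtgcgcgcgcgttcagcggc
SRSF5: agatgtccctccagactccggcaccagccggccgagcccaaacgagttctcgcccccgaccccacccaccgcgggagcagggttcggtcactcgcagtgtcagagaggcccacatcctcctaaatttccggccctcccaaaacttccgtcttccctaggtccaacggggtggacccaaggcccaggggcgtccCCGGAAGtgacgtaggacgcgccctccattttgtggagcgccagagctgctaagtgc
HNRNPH2: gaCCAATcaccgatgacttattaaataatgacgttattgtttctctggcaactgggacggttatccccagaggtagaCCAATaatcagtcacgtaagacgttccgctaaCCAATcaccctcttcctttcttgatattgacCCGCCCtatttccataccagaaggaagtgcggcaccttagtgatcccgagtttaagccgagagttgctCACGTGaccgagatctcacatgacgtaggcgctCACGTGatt

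The *HNRNPD* promoter, of a gene at −1.87 after *miR-486-3p*, held 1 match each to the GC box, the E-box, the ETS-type motif and the TATA box letters. That of *HNRNPA0*, at −1.71, held 1 each to CCAAT and GGGCGG. The *SRSF5* promoter, at 0.81, held 1 to CCGGAAG. *HNRNPH2*, at 0.93, had the most matches of these 4, with 3 to CCAAT, 2 to CACGTG and 1 to GGGCGG, and the lowest GC content, 47.6% against 70.4% for *HNRNPA0*. Over the 48 starts of the splicing factors, the GC box letters GGGCGG occurred in 62.5%, beside 42.6% of all 35116 promoters of that length. CCAAT occurred in 45.8% beside 32.0%, and the E-box CACGTG in 14.6% beside 6.34%. The ETS-type letters CCGGAAG occurred in 10.4% beside 8.52%, and TATAAA in 12.5% beside 10.7%. Starts of 1 gene can overlap, a match is only a match of letters, and the binding of a factor was not measured.

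**Figure D2:**
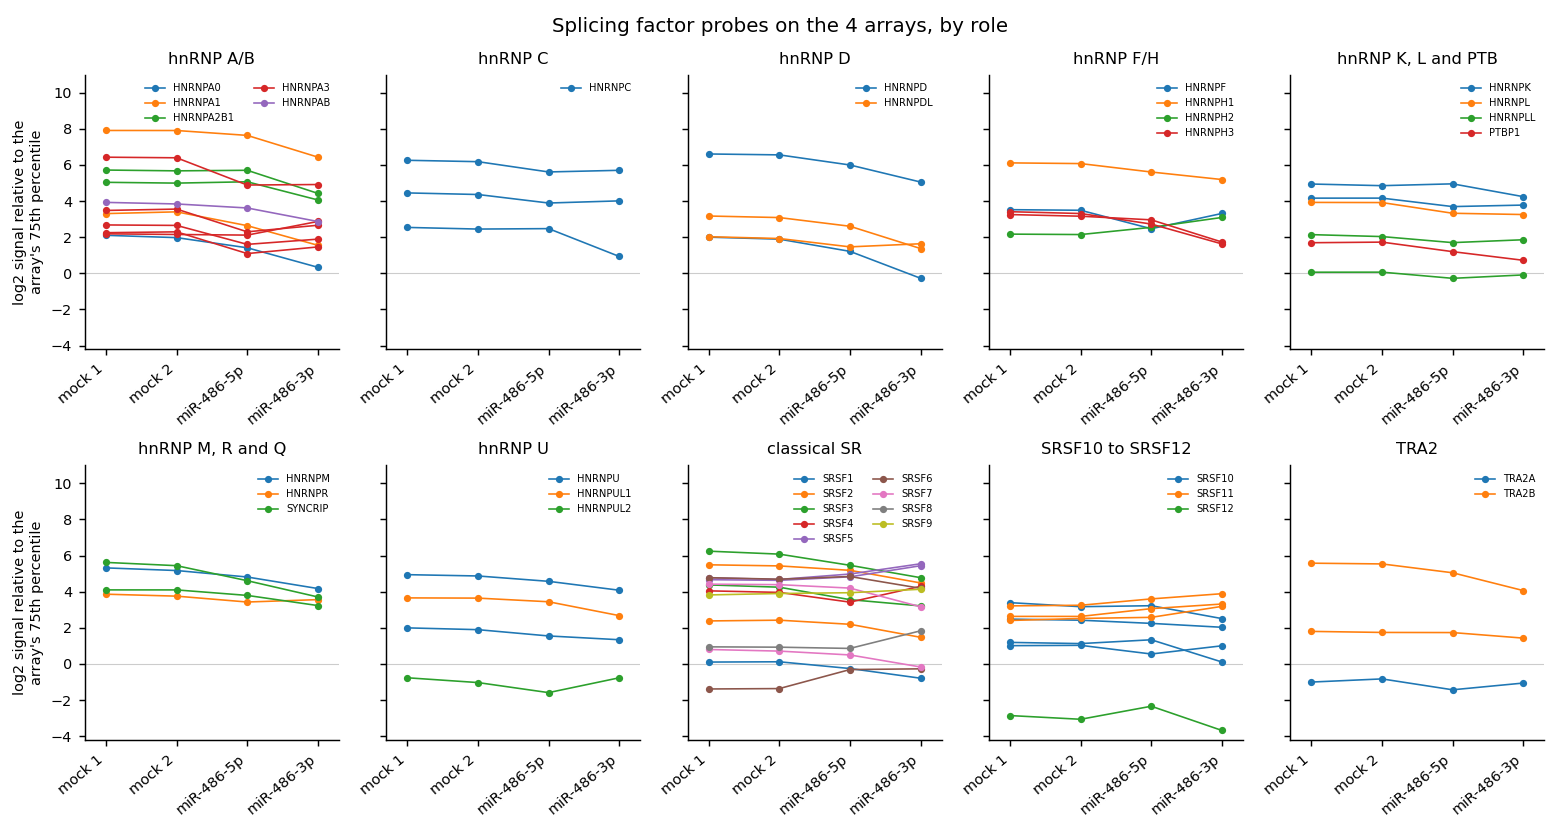
Level of each of the 62 probes on the 4 arrays, in panels by role; the y axis is the log2 signal minus the log2 of the 75th percentile of the array, and each line joins the values of 1 probe, colored by gene. Lines are nearly flat between the mock arrays, and most hnRNP lines are lower on the *miR-486-3p* array.

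The hnRNP A/B proteins bind RNA through a pair of RNA recognition motifs and a glycine-rich tail. All 5 of their genes lay below −0.5 after *miR-486-3p*, from −1.71 to −0.65, beside 27.2% of all genes, although the probes of *HNRNPA3* disagree. *HNRNPA1*, whose protein silences exons and competes with SRSF1, had levels of 3.303 and 3.40 in mock cells, 2.64 with *miR-486-5p* and 1.55 with *miR-486-3p* at its first probe. Its second probe, listed under another transcript record, read 7.90 and 7.90 in mock cells, 7.63 with *miR-486-5p* and 6.43 with *miR-486-3p*. On both probes the *miR-486-5p* array lay below the mock arrays, which hardly differed, and the *miR-486-3p* array lower still. The differences after *miR-486-3p* were −1.80 (limma adjusted p = 0.00805) and −1.47 (limma adjusted p = 0.00831), which leaves 28.7% and 36% of the mock signal. After *miR-486-5p* they were −0.72 (limma adjusted p = 0.0561) and −0.27 (limma adjusted p = 0.143), not past the threshold. RefSeq names 75 pseudogenes after *HNRNPA1* and 17 after *HNRNPA3*, and binding of their transcripts to these probes was not tested.

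*HNRNPA0*, a relative of HNRNPA1 that binds AU-rich mRNA, read 2.10 and 1.97 in mock cells, 1.41 with *miR-486-5p* and 0.33 with *miR-486-3p*. It fell to 30.7% of the mock signal after *miR-486-3p*, a difference of −1.71 (standard error 0.110, limma adjusted p = 0.00870). After *miR-486-5p* it was at −0.63 (limma adjusted p = 0.0681). *HNRNPA2B1*, which sorts RNAs for transport as well as splicing, had 5.71 and 5.67 in mock cells, 5.70 with *miR-486-5p* and 4.42 with *miR-486-3p* at 1 probe. Its *miR-486-5p* level lay between the mock arrays, and only the *miR-486-3p* level stood apart. The mean difference of its 2 probes after *miR-486-5p* was 0.03, and −0.05 with median scaling and −0.02 with normexp correction. After *miR-486-3p* both its probes fell, with differences of −1.27 and −0.95 (limma adjusted p = 0.00927 and 0.0125). The *miR-486-3p* array was lower than the *miR-486-5p* array by limma for *HNRNPA2B1*, with differences of −1.28 (limma adjusted p = 0.0142) and −1.005 (limma adjusted p = 0.0180). *HNRNPAB*, which binds single-stranded DNA as well as RNA, was at −0.27 (limma adjusted p = 0.173) after *miR-486-5p* and fell, with a difference of −1.01 (limma adjusted p = 0.0128) after *miR-486-3p*.

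*HNRNPA3*, which takes part in cytoplasmic RNA trafficking, was the hnRNP A/B gene with the strongest difference after *miR-486-5p*, and its 5 probes disagreed. The probe numbered 4 in the plot of disagreeing probes had levels of 6.42 and 6.39 in mock cells, 4.88 with *miR-486-5p* and 4.91 with *miR-486-3p*. Probes 1, 2 and 5 behaved alike after *miR-486-5p*, with differences of −1.06, −1.22 and −1.18, and probe 4 had −1.52; all 4 had a limma adjusted p of 0.0475. Probe 3 read 2.18 and 2.15 in mock cells, 2.11 with *miR-486-5p* and 2.87 with *miR-486-3p*. It was thus at −0.05 (limma adjusted p = 0.693) after *miR-486-5p* and rose, with a difference of 0.70 (limma adjusted p = 0.0188) after *miR-486-3p*, where the other probes fell, with differences from −1.50 to −0.77. All 5 are listed under 1 transcript record, and what probe 3 detects was not tested. The mean over the 5 probes, −1.01 with *miR-486-5p* and −0.65 with *miR-486-3p*, therefore averages unlike values.

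**Figure D3:**
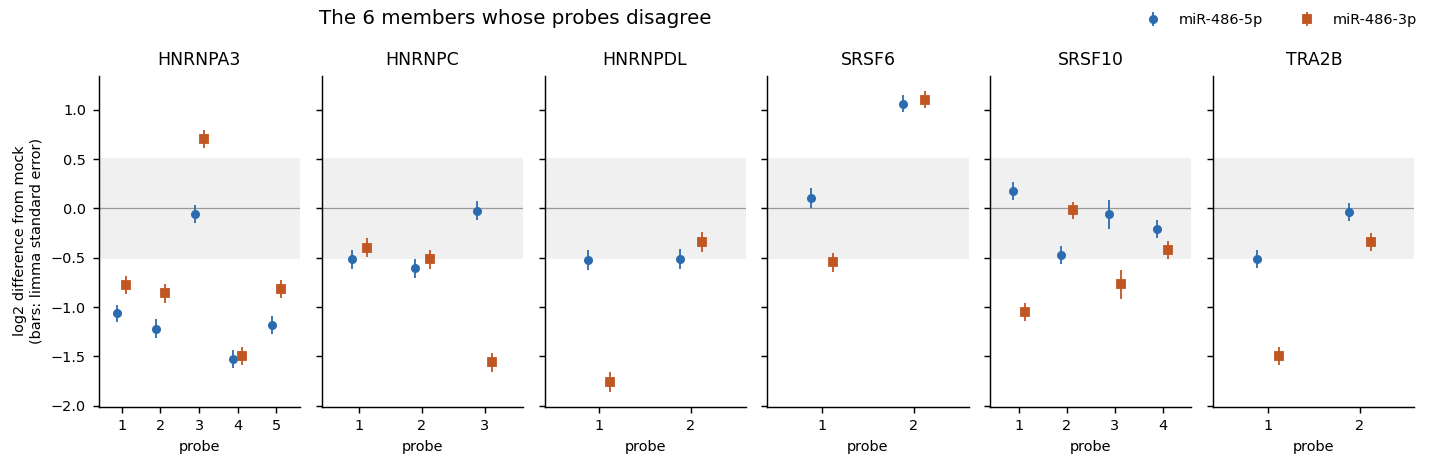
Log2 differences from mock of every probe of the 6 genes whose probes disagree, after *miR-486-5p* (circles) and *miR-486-3p* (squares), with limma standard errors as bars and a gray band from −0.5 to 0.5. After *miR-486-3p*, *HNRNPA3* and *SRSF6* each had 1 probe above the band and at least 1 below it, and the probes of the other 4 genes differed in size.

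HNRNPC binds uridine tracts of nascent transcripts and keeps cryptic exons out of mRNA. Its 3 probes carry 1 transcript record but did not move alike. Probe 3 had levels of 2.54 and 2.45 in mock cells, 2.47 with *miR-486-5p* and 0.93 with *miR-486-3p*. That probe fell after *miR-486-3p*, with a difference of −1.56 (limma adjusted p = 0.00864), while its *miR-486-5p* level lay between the mock arrays. Probe 2 read 6.25 and 6.18 in mock cells, 5.61 with *miR-486-5p* and 5.70 with *miR-486-3p*. Here both strands lay below the mock arrays by a similar amount, but only *miR-486-3p* passed the threshold. With *miR-486-5p* the difference of probe 2 was −0.61 (limma adjusted p = 0.0616). With *miR-486-3p* it was −0.52 (limma adjusted p = 0.0348). Probe 1 passed the threshold for neither strand. It was at −0.52 with *miR-486-5p* (limma adjusted p = 0.0747). Its *miR-486-3p* difference was −0.40 (limma adjusted p = 0.0587). Between the strands, probe 3 was at −1.54 (*miR-486-3p* minus *miR-486-5p*) and the other 2 at 0.12 and 0.09. The mean of −0.44 thus has the sign of 1 probe only.

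HNRNPD, also known as AUF1, binds AU-rich elements and speeds the decay of many short-lived mRNAs. *HNRNPD* had the lowest mean of the 36 genes after *miR-486-3p*. Its first probe read 6.60 and 6.55 in mock cells, 5.99 with *miR-486-5p* and 5.05 with *miR-486-3p*. The second read 2.00 and 1.89 in mock cells, 1.21 with *miR-486-5p* and −0.28 with *miR-486-3p*. On each probe the mock arrays were close together, the *miR-486-5p* level lay below them and the *miR-486-3p* level lower still. The differences after *miR-486-3p* were −1.53 (limma adjusted p = 0.00836) and −2.22 (limma adjusted p = 0.00762), or 34.7% and 21.5% of the mock signal. After *miR-486-5p* they were −0.58 (limma adjusted p = 0.0609) and −0.73 (limma adjusted p = 0.0568). *HNRNPDL*, its close paralog, had a probe that fell after *miR-486-3p*, with a difference of −1.76 (limma adjusted p = 0.00804) and another at −0.34 (limma adjusted p = 0.0815), although both gave nearly the same difference after *miR-486-5p*, −0.52 and −0.51.

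The hnRNP F/H proteins bind runs of guanosines near splice sites and polyadenylation signals. *HNRNPF* read 3.52 and 3.49 in mock cells, 2.46 with *miR-486-5p* and 3.31 with *miR-486-3p*. It was lowest on the *miR-486-5p* array, at 48.7% of the mock signal, a difference of −1.04 (standard error 0.0889, limma adjusted p = 0.0475), beside −0.19 (limma adjusted p = 0.171) after *miR-486-3p*. The difference between the strands was 0.85 (limma adjusted p = 0.0216). *HNRNPH2* read 2.17 and 2.14 in mock cells, 2.54 with *miR-486-5p* and 3.09 with *miR-486-3p*. Both strands lay above the mock arrays, and the rise after *miR-486-3p*, 0.93 (limma adjusted p = 0.0124), to 191% of the mock signal, passed the threshold, while 0.39 (limma adjusted p = 0.0915) after *miR-486-5p* did not. Its near-identical relative *HNRNPH1* had levels of 6.11 and 6.07 in mock cells, 5.60 with *miR-486-5p* and 5.19 with *miR-486-3p*. In contrast to *HNRNPH2*, it fell after *miR-486-3p*, with a difference of −0.90 (limma adjusted p = 0.0132); binding of either transcript to the probe of the other was not tested. *HNRNPH3*, the smallest of this subfamily, fell after *miR-486-3p* on both its probes, to 36% and 30.1% of the mock signal (limma adjusted p = 0.00896 and 0.00827).

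The genes of hnRNP K, L and PTB encode proteins with preferences for cytidine-rich, CA-rich and pyrimidine-rich RNA. *PTBP1*, the polypyrimidine tract binding protein that represses neuronal exons in other cells, read 1.69 and 1.72 in mock cells, 1.197 with *miR-486-5p* and 0.72 with *miR-486-3p*. It fell after *miR-486-3p*, with a difference of −0.99 (limma adjusted p = 0.0118), and was at −0.51 (limma adjusted p = 0.0678) after *miR-486-5p*. *HNRNPL*, which binds CA repeats, gave similar values after both strands, −0.60 (limma adjusted p = 0.0577) and −0.67 (limma adjusted p = 0.0196). The direct difference between the strands was −0.07 (limma adjusted p = 0.603), and 0.05 with quantile normalization. *HNRNPLL*, a relative of HNRNPL known for splicing of *PTPRC* in lymphocytes, passed the threshold for neither strand, with means of −0.36 and −0.19 over 2 probes; the strands differed by 0.17, and by −0.12 with median scaling. *HNRNPK*, a poly(C)-binding protein with KH domains, had 2 probes under different transcript records. After *miR-486-3p* they fell, with differences of −0.65 and −0.38 (limma adjusted p = 0.0248 and 0.0496), and after *miR-486-5p* they were at 0.06 and −0.47, so that the mean of −0.21 has the opposite sign to the brightest probe.

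SYNCRIP, also called hnRNP Q, and its paralog HNRNPR bind mRNAs in the nucleus and the cytoplasm, and HNRNPM binds GU-rich RNA. *SYNCRIP* had levels of 5.62 and 5.44 in mock cells, 4.61 with *miR-486-5p* and 3.71 with *miR-486-3p* at 1 probe. The other read 4.10 and 4.10 in mock cells, 3.79 with *miR-486-5p* and 3.23 with *miR-486-3p*. Both fell after *miR-486-3p*, to 28.3% and 54.8% of the mock signal (limma adjusted p = 0.00921 and 0.0135), although the mock arrays themselves were 0.18 apart at the first. *HNRNPM* fell, with a difference of −1.07 (limma adjusted p = 0.0149) after *miR-486-3p*, against −0.43 (limma adjusted p = 0.113) after *miR-486-5p*. *HNRNPR* passed the threshold for neither strand, at −0.38 and −0.25, and the strands differed by 0.13 (limma adjusted p = 0.429), or −0.17 with median scaling.

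HNRNPU, or scaffold attachment factor A, binds both chromatin and nascent RNA, and HNRNPUL1 and HNRNPUL2 resemble it. *HNRNPU* fell after *miR-486-3p* at both probes, with differences of −0.82 (limma adjusted p = 0.0162) and −0.61 (limma adjusted p = 0.0291). *HNRNPUL1* read 3.65 and 3.64 in mock cells, 3.44 with *miR-486-5p* and 2.67 with *miR-486-3p*. Its *miR-486-3p* level stood apart, with a difference of −0.97 (limma adjusted p = 0.0117). *HNRNPUL2* had levels of −0.77 and −1.03 in mock cells, −1.59 with *miR-486-5p* and −0.77 with *miR-486-3p*. The mock arrays differed for it by 0.27, the most among the 62 probes, and the *miR-486-3p* level lay between them. Its difference of 0.13 after *miR-486-3p* had no settled sign, being −0.24 with median scaling and −0.0014 without mock replicate 2. That of −0.69 after *miR-486-5p* had a limma adjusted p of 0.0967, and became −0.31 with normexp correction, where limma called it lower.

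The 9 classical SR genes, *SRSF1* to *SRSF9*, did not move as a block. After *miR-486-3p*, 4 lay below −0.5 and 2 above 0.5 (all genes: 27.2% and 30.4%), and limma called 5 lower and 3 higher (all genes: 31.6% and 31.9%), *SRSF6* in both directions. *SRSF3*, the smallest SR protein and an adaptor of mRNA export, had levels of 6.24 and 6.08 in mock cells, 5.46 with *miR-486-5p* and 4.77 with *miR-486-3p*. Its second probe gave 4.37 and 4.25 in mock cells, 3.56 with *miR-486-5p* and 3.21 with *miR-486-3p*. Both strands lay below the mock arrays, and *miR-486-3p* lay lowest. The differences after *miR-486-3p* were −1.38 (limma adjusted p = 0.0115) and −1.10 (limma adjusted p = 0.0132), and after *miR-486-5p* −0.70 (limma adjusted p = 0.0678) and −0.75 (limma adjusted p = 0.0575). *SRSF7*, which has a zinc knuckle and resembles SRSF3, fell on both its probes after *miR-486-3p*, to 52.8% and 42.5% of the mock signal (limma adjusted p = 0.0147 and 0.00931). Its probes were at −0.26 and −0.20 after *miR-486-5p*.

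*SRSF1*, the prototype SR protein and an oncoprotein in lung and other epithelia, read 0.10 and 0.12 in mock cells, −0.25 with *miR-486-5p* and −0.79 with *miR-486-3p*. It fell after *miR-486-3p*, with a difference of −0.90 (limma adjusted p = 0.0129), and was at −0.37 (limma adjusted p = 0.0977) after *miR-486-5p*. *SRSF2*, known as SC35 and used as a mark of nuclear speckles, had 2 probes that agreed closely, at −0.97 and −0.93 after *miR-486-3p* (limma adjusted p = 0.0126 and 0.0128) and at −0.28 and −0.21 after *miR-486-5p*. *SRSF9*, a relative of SRSF1, read 3.82 and 3.90 in mock cells, 3.94 with *miR-486-5p* and 4.13 with *miR-486-3p*. It passed the threshold for neither strand, at 0.08 and 0.27, the latter −0.10 with median scaling, which also turns the difference between the strands from 0.19 to −0.11.

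*SRSF5* and *SRSF8* went the other way. *SRSF5*, which shares the layout of 2 RNA recognition motifs with SRSF4 and SRSF6, had levels of 4.77 and 4.68 in mock cells, 4.98 with *miR-486-5p* and 5.54 with *miR-486-3p*. The second probe read 4.66 and 4.63 in mock cells, 4.82 with *miR-486-5p* and 5.43 with *miR-486-3p*. Levels were highest on the *miR-486-3p* array, and the *miR-486-5p* array also lay above both mock arrays. The rise after *miR-486-3p* was 0.82 (limma adjusted p = 0.0172) and 0.79 (limma adjusted p = 0.0158), to 177% and 173% of the mock signal. *SRSF8*, an SR gene close in sequence to *SRSF2*, read 0.95 and 0.93 in mock cells, 0.86 with *miR-486-5p* and 1.83 with *miR-486-3p*. Its level rose on the *miR-486-3p* array alone, with a difference of 0.90 (limma adjusted p = 0.0130), and was at −0.08 (limma adjusted p = 0.559) after *miR-486-5p*. The strands differed for *SRSF8* by 0.97 (limma adjusted p = 0.0181). *SRSF4* read 4.04 and 3.96 in mock cells, 3.42 with *miR-486-5p* and 4.29 with *miR-486-3p*. It was low after *miR-486-5p*, at −0.58 (limma adjusted p = 0.0654), and at 0.29 (limma adjusted p = 0.102) after *miR-486-3p*, the latter −0.08 with median scaling; neither passed the threshold, but the strands differed by 0.87 (limma adjusted p = 0.0236).

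*SRSF6* had the widest gap between probes among the SR genes against mock, though not between the strands. The probe listed under its coding record had levels of 4.77 and 4.69 in mock cells, 4.84 with *miR-486-5p* and 4.19 with *miR-486-3p*. The probe listed under a noncoding transcript record of the gene read −1.39 and −1.36 in mock cells, −0.31 with *miR-486-5p* and −0.27 with *miR-486-3p*. The coding probe was low after *miR-486-3p* alone, while the noncoding probe was high after both strands, and the mock arrays agreed on each. For the coding probe the differences were 0.11 (limma adjusted p = 0.478) after *miR-486-5p* and −0.55 (limma adjusted p = 0.0327) after *miR-486-3p*. For the noncoding probe they were 1.06 (limma adjusted p = 0.0475) and 1.104 (limma adjusted p = 0.0104), to 209% and 215% of the mock signal. The mean over both probes after *miR-486-3p*, 0.28, has no settled sign: it was −0.09 with median scaling and −0.55 from the coding record alone, a choice made after the probes were seen.

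SRSF10, SRSF11 and SRSF12 are SR proteins outside the classical set; SRSF10 turns into a splicing repressor when it is dephosphorylated, as in heat shock. *SRSF11*, also known as p54, rose on all 3 of its probes after *miR-486-3p*. Its first probe read 2.63 and 2.63 in mock cells, 3.06 with *miR-486-5p* and 3.31 with *miR-486-3p*. There the mock arrays were lowest, *miR-486-5p* intermediate and *miR-486-3p* highest. The 3 probes had differences of 0.69, 0.66 and 0.72 after *miR-486-3p*, with limma adjusted p of 0.0188, 0.0206 and 0.0231, and of 0.43, 0.37 and 0.12 after *miR-486-5p*, where none passed the threshold. *SRSF10* had 4 probes under 3 transcript records, which disagreed after *miR-486-3p*, from −1.05 to −0.02. Probe 1 read 1.19 and 1.13 in mock cells, 1.34 with *miR-486-5p* and 0.11 with *miR-486-3p*. Probe 2, listed under the same record, read 1.01 and 1.029 in mock cells, 0.55 with *miR-486-5p* and 1.002 with *miR-486-3p*. The first of these was low after *miR-486-3p*, at −1.05, and passed the threshold. The second was lower after *miR-486-5p*, at −0.47, and did not pass it. The strands differed by −1.23 (limma adjusted p = 0.0152) at probe 1 and 0.45 (limma adjusted p = 0.0550) at probe 2. *SRSF12*, a relative of SRSF10, was dim, with signals before scaling of 15.7 and 13.7 in mock cells, 20.6 with *miR-486-5p* and 7.26 with *miR-486-3p*. Its difference of −0.72 (limma adjusted p = 0.0368) after *miR-486-3p* became 0.05 with normexp correction. That of 0.62 (limma adjusted p = 0.0895) after *miR-486-5p* did not pass the threshold, and became 0.21 with normexp correction, where limma called it higher.

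TRA2A and TRA2B, the human relatives of the fly sex-determination factor transformer-2, bind GAA-rich exonic enhancers together with SR proteins. *TRA2B* had a probe with levels of 5.58 and 5.53 in mock cells, 5.05 with *miR-486-5p* and 4.06 with *miR-486-3p*. A probe under another transcript record read 1.80 and 1.74 in mock cells, 1.74 with *miR-486-5p* and 1.43 with *miR-486-3p*. The former fell after *miR-486-3p*, to 35.5% of the mock signal (−1.49, limma adjusted p = 0.00840), whereas the latter was at −0.34 (limma adjusted p = 0.0678). After *miR-486-5p* they were at −0.51 (limma adjusted p = 0.0685) and −0.04 (limma adjusted p = 0.794). *TRA2A* read −1.004 and −0.83 in mock cells, −1.43 with *miR-486-5p* and −1.06 with *miR-486-3p*. Its mock arrays differed by −0.17, and it passed the threshold for neither strand, with −0.52 (limma adjusted p = 0.100) and −0.14 (limma adjusted p = 0.402). The difference after *miR-486-5p* became −0.24 with normexp correction, where limma called it lower.

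Of the 36 genes, 17 were measured by 1 probe and 19 by more, up to 5. Probes were taken to disagree when 1 lay below −0.5 and another above 0.5, or when their differences spanned more than 1, and this held for 6 genes: *HNRNPA3*, *HNRNPC*, *HNRNPDL*, *SRSF6*, *SRSF10* and *TRA2B*. *HNRNPA3* spanned 1.47 with *miR-486-5p* and 2.20 with *miR-486-3p*. The other 5 disagreed after *miR-486-3p* only, with spans from 1.034 for *SRSF10* to 1.65 for *SRSF6*. Where every probe of a gene had to be called in 1 direction, limma called 19 of the 36 lower with *miR-486-3p* (25.7% of all genes), and 4 higher (25.6% of all genes).

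The rest of the splicing machinery was described with 6 further gene lists. Genes are named from them if their probes were all well above background on every array and if both mock arrays lay on 1 side of them, at most 2 of the lowest and 2 of the highest after each strand. Other RNA-binding proteins that act like hnRNPs had a median of 0.01 with *miR-486-5p* and −0.07 with *miR-486-3p*, with 4 of 28 genes below −0.5 and 2 above 0.5 after the latter, beside 27.2% and 30.4% of all genes. limma called 11 of 29 lower and 7 higher, 2 of them in both directions, beside 31.6% and 31.9% of all genes. The lowest such value after *miR-486-3p* was −1.34 for *RBMX*, an hnRNP G protein, and the highest were 0.996 for *RBM39* and 0.94 for *RBM5*, and limma called all 3. After *miR-486-5p*, *TAF15* was lowest at −0.79, just short of the limma threshold (adjusted p = 0.0503) and called under several other settings, median scaling and quantile normalization among them, and *PCBP2*, a poly(C)-binding protein, was highest at 0.94, called through 1 of its 2 probes, above *RBM5* at 0.44.

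The kinases that phosphorylate SR proteins, with factors of their import and of mRNA export, had a median of −0.07 with *miR-486-5p* and 0.04 with *miR-486-3p*. After *miR-486-3p*, 3 of 16 lay below −0.5 and 4 above 0.5 (all genes: 27.2% and 30.4%), and limma called 4 lower and 6 higher (all genes: 31.6% and 31.9%). The kinase gene *CLK2* rose to a difference of 1.97 (limma adjusted p = 0.0138) and the export receptor gene *NXF1* to 1.502, while the kinase gene *SRPK1* fell to a difference of −1.15 and the export adaptor gene *ALYREF* to −0.55. After *miR-486-5p*, limma called 0 of these genes (4 of 16 lower and 3 higher at an unadjusted p under 0.05, beside 25.1% and 23.3% of all genes), and the extremes were *CLK1* at 0.85, *NXF1* at 0.64, *CLK3* at −0.63 and the import receptor *TNPO2* at −0.58.

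SR-related proteins and factors of the 3′ splice site had medians of 0.01 and −0.10 after *miR-486-5p* and *miR-486-3p*. After *miR-486-3p*, 3 of 23 genes lay below −0.5 and 4 above 0.5 (all genes: 27.2% and 30.4%). There limma called 6 lower and 6 higher (all genes: 31.6% and 31.9%), 1 of them in both directions. *ZRSR2*, which recognizes 3′ splice sites of the minor spliceosome, rose to a difference of 1.90 and *LUC7L3*, related to a U1 component of yeast, to 1.003, and *PNN*, a speckle protein, fell to a difference of −1.73 and *SCAF1* to −1.24. After *miR-486-5p* the extremes were *U2SURP* at 0.67, the branch point factor *SF1* at 0.62, *THRAP3* at −0.48 and *LUC7L2* at −0.41; limma called 0 of the list after that strand (3 of 23 lower and 8 higher at an unadjusted p under 0.05, again beside 25.1% and 23.3%).

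The U1, U2 and Sm proteins of the spliceosome core had a median of −0.03 with *miR-486-5p* and −0.42 with *miR-486-3p*. After *miR-486-3p*, 10 of 25 lay below −0.5 and 2 above 0.5 (all genes: 27.2% and 30.4%). There limma called 13 lower and 4 higher (all genes: 31.6% and 31.9%), 1 of them in both directions. The U2 subunit genes differed in direction: *SF3A2* fell to a difference of −2.32 and *SF3A1* to −2.23, whereas *SF3B1* rose to a difference of 0.92 and *SF3B2* to 0.82. After *miR-486-5p* the Sm protein gene *SNRPF* fell to a difference of −0.89 (limma adjusted p = 0.0487); *SNRPD1* was at −0.59, *SNRNP70* at 0.27 and *SF3B2* at 0.25, not past the threshold. The tri-snRNP, LSm and Prp19 proteins had medians of −0.10 and 0.0073, and after *miR-486-3p* 13 of 37 lay below −0.5 and 11 above 0.5 (all genes: 27.2% and 30.4%), with limma calls for 15 lower and 11 higher (all genes: 31.6% and 31.9%). Of these, *PPIH*, a cyclophilin of the U4/U6 particle, fell to a difference of −0.88 with *miR-486-5p* and −2.40 with *miR-486-3p*. *LSM5* fell to a difference of −1.04 after *miR-486-5p* and *LSM8* to −2.12 after *miR-486-3p*, both subunits of the ring that binds the end of U6 RNA. The helicase gene *DHX38* rose to a difference of 1.12 after *miR-486-3p* and was at 0.61 after *miR-486-5p*, *SLU7* was at 0.40 after *miR-486-5p*, and *XAB2* was at 1.05 after *miR-486-3p* without passing the threshold.

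Genes of nonsense-mediated decay, the pathway that degrades the unproductive transcripts of several SR genes, had medians of −0.12 and −0.24. After *miR-486-3p*, 5 of 15 lay below −0.5 and 0 above 0.5 (all genes: 27.2% and 30.4%), and limma called 7 lower and 2 higher (all genes: 31.6% and 31.9%). *SMG9*, a regulator of the kinase of this pathway, fell to a difference of −1.56 and *UPF3B* to −1.01, and *SMG8* rose to a difference of 0.39, while *EIF4A3*, the helicase of the exon junction complex, was at 0.47 and not called. After *miR-486-5p* limma called 0 of the 15 (4 lower and 2 higher at an unadjusted p under 0.05, beside the same shares of all genes), and the extremes were the exon junction genes *MAGOHB* at −0.59 and *MAGOH* at −0.46, with *SMG5* at 0.50 and *UPF3A* at 0.32. Median scaling lowers every gene by the same amount after *miR-486-3p*, and so the medians of these 6 lists. Their medians near 0 have no settled size or sign. Without mock replicate 1, that of the SR-related list after *miR-486-5p* became 0.11, and that of the tri-snRNP list after *miR-486-3p* −0.04; without mock replicate 2, that of the U1, U2 and Sm list after *miR-486-5p* became −0.09.

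**Figure D4:**
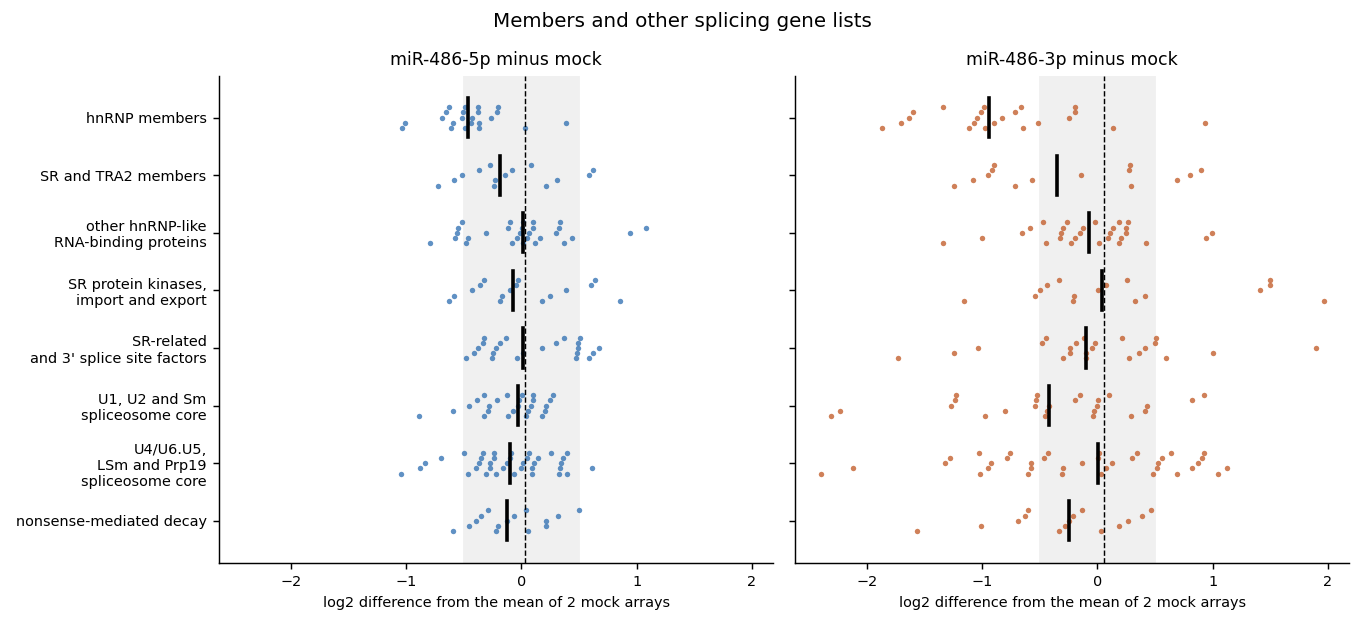
Log2 difference from mock of each gene of the hnRNP, SR and TRA2 groups and of the 6 further lists, after *miR-486-5p* (left) and *miR-486-3p* (right). Dots are genes, spread vertically for sight only, black bars are list medians and the dashed line is the median of all genes; after *miR-486-3p* the hnRNP median is at −0.94, the U1, U2 and Sm median at −0.42 and the SR and TRA2 median at −0.35.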

How the data were processed

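RNA of A549 cells was measured on 4 Agilent 1-color arrays of 1 slide. Per the file headers, the authors extracted spot intensity with Agilent Feature Extraction 12.1.1.1, which subtracted background and removed spatial trends. Processed log2 values of these arrays were deposited as well; their quartiles are equal on all 4, as after quantile normalization, and their centring is unstated. Here the processed intensity was put on the log2 scale, the 75th percentile of each array over non-control spots was subtracted, outlier spots were dropped and spots of a probe averaged. Probes were named through RefSeq accessions: 31104 of 33080 matched, giving 22439 genes. A probe entered a difference if it was well above background on every array of at least 1 of the groups compared. All 36 genes are named; the rule for list genes stands with them. limma 3.58.1 in R 4.3.3 was fitted to 33498 probes on all 4 arrays in 3 groups, with Benjamini-Hochberg adjustment over all probes; a gene was called if at least 1 probe was. Scripts were tested on simulated data. Alternatives covered the mock arrays, scaling, background correction, the authors' log2 values, filters, probe rules, the limit of 0.5, an intensity trend and the methods' t-test. Members and lists were chosen with earlier results of these data known.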

Additional observations from a re-analysis of the deposited data

Results flagged for a closer look

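For 27 of the 36 genes the *miR-486-3p* array differed from the *miR-486-5p* array by limma in at least 1 probe, beside 53.1% of all genes. Among hnRNP genes lower after *miR-486-3p*, the mean log2 difference (*miR-486-3p* minus *miR-486-5p*) was −1.22 for *HNRNPD*, −1.16 for *HNRNPH3*, −1.14 for *HNRNPA1*, −1.14 for *HNRNPA2B1*, −1.08 for *HNRNPA0*, −0.77 for *HNRNPUL1*, −0.75 for *HNRNPAB*, −0.73 for *SYNCRIP*, −0.64 for *HNRNPM*, −0.53 for *HNRNPDL*, −0.44 for *HNRNPC* and −0.31 for *HNRNPK*, where 2 of the 3 probes of *HNRNPC* (the brightest at 0.091) and 1 of 2 of *HNRNPDL* (0.17) and of *HNRNPK* (0.083) have the opposite sign. Among SR and TRA2 genes it was −1.34 for *SRSF12*, −0.85 for *SRSF7*, −0.71 for *SRSF2*, −0.65 for *TRA2B*, −0.54 for *SRSF1*, −0.52 for *SRSF3*, −0.43 for *SRSF10* and −0.31 for *SRSF6*; that of *SRSF12* was −0.16 with normexp, and *SRSF10* (0.45) and *SRSF6* (0.041) had a probe of the opposite sign. For genes higher after *miR-486-3p* it was 0.97 for *SRSF8*, 0.87 for *SRSF4*, 0.85 for *HNRNPF*, 0.59 for *SRSF5*, 0.55 for *HNRNPH2*, 0.38 for *SRSF11* and 0.36 for *HNRNPA3*. Of *HNRNPA3* only probe 3 (0.75), which disagreed with the others against mock, was called, and of *SRSF11* only 1 probe (0.61). The other probes of these genes lay above 0 but were not called. Each strand had 1 array, and why the strands differed in the genes listed was not tested.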

How the results depend on the processing

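Signs and counts for the 36 genes were recomputed under each alternative; where values moved, the cause was not tested unless the alternative itself sets it. No paired analysis was possible because only 1 array was made for each strand, which leaves no more than 1 number in common with mock. Naming by a gene name column was not run, as the array files used here have no such column, and neither was a block for slide or scan, since there was 1 of each. With 1 mock array left out, no residual degrees of freedom remain for limma, and the methods' t-test gives no value for 1 array against 1. Normexp used median signals. The coding-record alternative was chosen after seeing the data. Shares of all genes under the same setting stand in parentheses.

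After *miR-486-5p*, genes below −0.5 (12, all genes 15.9%) became 2 (4.61%) at a limit of 1, and genes above 0.5 (2, 13.8%) became 0 (4.56%) with normexp, 1 (13.8%) with the brightest probe, 0 (2.53%) at a limit of 1 and 1 (13.4%) with coding records. Lower calls (2, 6.66%) became 7 (14.1%) with median scaling, 27 (23.1%) with normexp, 19 (20.7%) with probes well above background on all 4 arrays, 28 (25%) with an intensity trend, 1 (4.83%) where every probe had to be called and 14 (14%) by the methods' t-test. Higher calls (1, 3.58%) became 4 (22.2%), 4 (17.9%) and 4 (22.2%) with normexp, the stricter filter and the trend, 3 (12.3%) by the methods' t-test, 0 (2.25%) where every probe had to be called and 0 (3.39%) with coding records. In the last 2 settings, 2 (17.1%) and 3 (23.1%) were higher by limma at an unadjusted p under 0.05. By limma on the authors' log2 values both counts were 0 and with no filter 0, over the 36 as over all genes. At an unadjusted p under 0.05 they were 24 and 3 (26.1% and 22.7%) and 23 and 3 (19.9% and 21.9%). After Benjamini-Hochberg the methods' t-test gave 0 and 0, and 0 of all genes.

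After *miR-486-3p*, genes below (24, 27.2%) became 11 (14.1%) at a limit of 1, and genes above (4, 30.4%) 2 (17.8%) with median scaling and 0 (14.8%) at a limit of 1. Higher calls (6, 31.9%) became 3 (20.5%) with median scaling. The methods' t-test gave 22 lower (23.2%) and 6 higher (19.6%), and 0 and 0 after Benjamini-Hochberg, as for all genes, where limma called 25 (31.6%) and 6. The hnRNP median (−0.94) became −1.31 with median scaling, −0.72 with quantile normalization and −0.72 on the authors' log2 values. The SR and TRA2 median (−0.35) became −0.73 with median scaling, −0.0063 with normexp, −0.63 with the brightest probe and −0.56 with coding records. Between the strands, genes below and above (16 and 6, 26.4% and 28.6%) became 6 (13%) and 0 (14%) at a limit of 1; lower calls (20, 27.3%) became 11 (14.1%) with no filter and 13 (21.7%) where every probe had to be called, and higher calls (7, 26.7%) 2 (19.1%) with median scaling and 3 (14.2%) with no filter.

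The sign turned after *miR-486-5p* for *HNRNPA2B1* (−0.046 with median scaling, −0.017 with normexp) and *HNRNPK* (0.056, brightest probe). Median scaling moves every gene by the same amount (−0.37 after *miR-486-3p*, −0.30 between the strands) and so turns any gene that lies above 0 by less than that. After *miR-486-3p* it turned *HNRNPUL2* (−0.24), *SRSF4* (−0.083), *SRSF6* (−0.095) and *SRSF9* (−0.10), the brightest probe and coding records turned *SRSF6* (−0.55 and −0.55), and normexp turned *SRSF12* (0.048). Between the strands, median scaling turned *HNRNPLL* (−0.12), *HNRNPR* (−0.17) and *SRSF9* (−0.11), the brightest probe *HNRNPC* (0.091), and quantile normalization and the authors' log2 values *HNRNPL* (0.053 and 0.06). *HNRNPUL2* after *miR-486-3p* also passed 0 without mock replicate 2.

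Leaving out either mock array gave 12 genes below (15.8% to 16.4%) and 2 above (14%) after *miR-486-5p*. After *miR-486-3p* it gave 23 to 24 below (27.1% to 27.2%) and 4 above (30.1% to 30.3%). hnRNP medians were −0.49 to −0.43 and −0.95 to −0.93, and SR and TRA2 medians −0.21 to −0.15 and −0.38 to −0.33. *SRSF12*, with the dimmest signals named here, is limited by its signal over background.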
